A study of Mus musculus with 8 samples.

Results

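Transcripts of brain endothelial and mural cells were followed in ribosome-associated RNA from cortical synaptosomes, in which Cre-dependent ribosome tagging was directed to interneurons. The 10 transcripts were chosen by gene symbol, 6 as markers of endothelial cells (Cldn5, Pecam1, Flt1, Tek, Cdh5 and Slco1a4) and 4 as markers of mural cells (Pdgfrb, Rgs5, Kcnj8 and Vtn), out of 56576 genes in the deposited table. These transcripts and the gene lists used below were chosen with earlier results of these data known. Counts set beside shares of all genes are therefore descriptions. All 10 were found by symbol and all 10 passed the filter for testing, averaging 10 or more normalized counts in controls, in mutants or in both. The 8 libraries came from mice at postnatal day 15, 4 of the genotype Lhx6-Cre;Erbb4+/+;Rpl22HA/HA (controls, replicates 1, 3, 4 and 5) and 4 of the genotype Lhx6-Cre;Erbb4F/F;Rpl22HA/HA (Erbb4 conditional mutants, replicates 2, 3, 4 and 5). Every library thus carried Lhx6-Cre and the HA-tagged allele of the ribosomal protein gene Rpl22, and the genotypes differed in whether Erbb4 could be deleted by Cre. Lhx6-Cre acts in cortical interneurons that arise in the MGE (medial ganglionic eminence) and in the preoptic area. Tagged ribosomes were pulled down with anti-HA beads from synaptosomes, a preparation of pinched-off synaptic terminals. No input RNA and no library from mice without Cre was among the 8 samples, so how far a transcript was enriched or depleted by the pull-down cannot be told from these data.

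Endothelial cells line the vessels of the brain and form the blood-brain barrier, in which tight junctions seal the space between neighbouring cells and transporters carry selected molecules across them. Mural cells, the pericytes of capillaries and the smooth muscle cells of larger vessels, lie around the endothelium within a shared basement membrane. Endothelial cells respond to VEGF and angiopoietins through receptor tyrosine kinases and attract pericytes by secreting PDGF-B, which acts on the receptor encoded by Pdgfrb.

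Promoters of 7 of the 10 genes were examined, matched by symbol in RefSeq (GRCm38.p6, the mm10 assembly). Pecam1 and Cdh5 had no match, and the promoter of Pdgfrb is not reported here. Each of the 7 promoters spans 250 bases before to 50 bases after the start of the gene. Those of Flt1, Tek and Cldn5 are shown because the first pair were called higher with no overlap between genotypes and the third is an endothelial gene of high level that did not pass the test. They lie at chr5:147725962-147726261 on the minus strand, chr4:94739039-94739338 on the plus strand and chr16:18776597-18776896 on the plus strand, and are written 5′ to 3′ along the gene. Capitals mark GGAAG, a form of the core bound by ETS factors, searched as GGAAG and its complement CTTCC.
Flt1: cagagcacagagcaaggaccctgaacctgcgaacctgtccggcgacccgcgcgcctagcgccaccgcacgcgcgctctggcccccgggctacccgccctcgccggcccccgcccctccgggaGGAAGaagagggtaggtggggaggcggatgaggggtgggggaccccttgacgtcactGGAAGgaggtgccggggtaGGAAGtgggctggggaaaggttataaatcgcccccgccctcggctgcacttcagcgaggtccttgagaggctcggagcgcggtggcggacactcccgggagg
Tek: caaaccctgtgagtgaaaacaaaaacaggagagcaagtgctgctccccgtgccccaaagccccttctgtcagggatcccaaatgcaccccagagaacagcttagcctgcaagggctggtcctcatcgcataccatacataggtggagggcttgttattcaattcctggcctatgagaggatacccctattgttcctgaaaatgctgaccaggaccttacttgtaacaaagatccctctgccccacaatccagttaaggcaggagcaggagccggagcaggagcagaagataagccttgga
Cldn5: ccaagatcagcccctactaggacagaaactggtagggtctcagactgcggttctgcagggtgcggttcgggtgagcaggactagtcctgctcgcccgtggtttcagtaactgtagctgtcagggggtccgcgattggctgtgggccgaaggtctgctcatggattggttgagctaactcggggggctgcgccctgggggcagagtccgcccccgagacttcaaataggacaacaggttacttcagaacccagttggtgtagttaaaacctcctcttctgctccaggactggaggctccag
The Flt1 promoter held 3 matches, and those of Tek and Cldn5 held 0. Over the 7 promoters 3 held at least 1 match (Flt1, Slco1a4 and Vtn), and so did 71.4% of all 32851 promoters of the same length. A match is a description of the letters in this window only.

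The reads counted on genes numbered 51010687 to 80226984 per library. Erbb4, the targeted gene, had 1640, 5377, 4306 and 3034 normalized counts in controls 1, 3, 4 and 5 and 1711, 1648, 1233 and 1048 in mutants 2, 3, 4 and 5. Its log2 fold change was -1.25 ± 0.34 (SE), with a limma p of 0.0041 and a Benjamini-Hochberg adjusted p of 0.58 in the same fit. The library labelled control replicate 1 lay within the range of the mutants for Erbb4. For the summed normalized counts of 10 MGE interneuron markers, listed below, it lay above all mutants, at 244411 against 23876 to 187626. Controls 4 and 5, at 149865 and 64385, lay within that range. Its label was kept, and whether the label is right was not tested. This library also stood apart in having reads on the fewest genes, 28247 against 31141 to 34364 in the other libraries. It differed as well in its balance of short and long transcripts, given below. The fold changes of the 10 transcripts that it moves, the genes called in the other lists and the list medians that it moves by over 1.5 times are therefore also given without it. The study used more than a single sequencing batch and no label assigns a library to a batch, so batch could not enter a fit and no within-batch value can be given. After the genotype means were removed, controls 1 and 3 correlated positively over genes with mutants 2 and 3 (0.023 to 0.10) and negatively with mutants 4 and 5, and controls 4 and 5 the reverse (0.082 to 0.098 with mutants 4 and 5). What these shared deviations contribute to the values below was not tested. In bulk RNA of this kind fewer cells of a type and less RNA per cell cannot be told apart.

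All 10 transcripts were measured well above the counting limit, the smallest value being 1015 reads for Cdh5 in the library labelled control replicate 1. Levels were compared between genes as normalized counts per kilobase of the longest annotated transcript, and ranked among the 16594 tested genes with a known length. The counts cover only the constitutive regions of a gene, whose length was not used, so the order of genes by level is approximate. Cldn5, the claudin that forms the tight junctions of brain endothelium, had the highest level, 49558 ± 21926 normalized counts per kb in controls (SD, n = 4), above 99.8% of genes. Slco1a4, an organic anion transporter of the barrier, followed with 13483 ± 3942 per kb (SD, n = 4; above 98.8%), and Vtn, which encodes vitronectin, an extracellular matrix protein made by pericytes, with 12287 ± 2690 per kb (SD, n = 4; above 98.7%). The control values of Cldn5 did not overlap those of Slco1a4, those of Slco1a4 and Vtn overlapped, and those of Vtn did not overlap those of the next gene. Flt1, which encodes the VEGF receptor VEGFR1, stood above 96.8% of genes in controls, Pecam1, an adhesion protein of endothelial junctions, above 95.2%, and Tek, which encodes the angiopoietin receptor Tie2, above 94.2%. Rgs5, a regulator of G protein signalling in pericytes, stood above 91.1% and Pdgfrb, the PDGF receptor of mural cells, above 83.1%. Kcnj8, the pore subunit of a potassium channel of pericytes, and Cdh5, the cadherin of endothelial adherens junctions, came last, above 66.8% and 65.1% of genes. From Flt1 down to Cdh5, each gene's control values overlapped those of its neighbour in this order. By comparison, the level per kb of Sst, the somatostatin gene of the tagged interneurons, was above that of 99.99% of genes in controls, that of Pvalb above 92.0% and that of Lhx6 above 55.4%.

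The 10 transcripts together made up 0.291%, 0.387%, 0.354% and 0.319% of the reads of controls 1, 3, 4 and 5, and 0.490%, 0.456%, 0.482% and 0.491% of those of mutants 2, 3, 4 and 5. On this scale, a share of all reads on genes, every mutant library lay above every control library. How many of all genes separate in this way on this scale was not computed. On normalized counts the genotypes were not separated. The 6 endothelial genes summed to 269085 in control 3 against 240153 to 250637 in mutants, and the sums of the 4 mural genes overlapped as well. The difference in read share was not spread evenly over the genes. On normalized counts, which the authors scaled by the DESeq2 size factor of each library, the lowest library was the one labelled control replicate 1 for 5 of the 10 genes, control 5 for 3 and control 4 for 2. The highest was mutant 4 for 4 genes and control 3 for another 3.

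**Figure D1:**
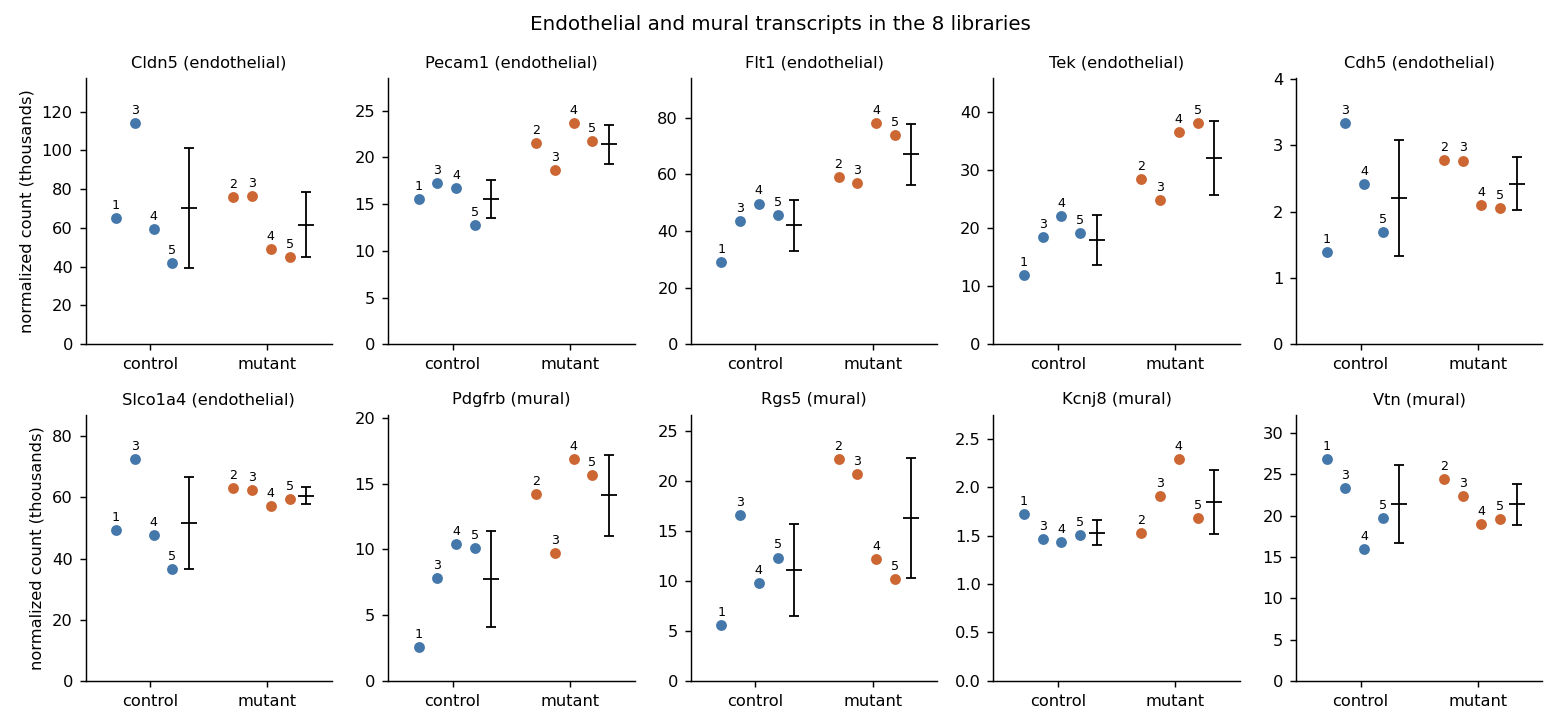
Normalized counts (linear axis from 0) of the 10 transcripts in the 4 control and 4 mutant libraries. Each point is a library with its replicate number, and the bar beside each group is the mean ± SD. For Pecam1, Flt1 and Tek all 4 mutants lie above all 4 controls, whereas the groups overlap for the other 7 genes.

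The data show that 3 of the 10 transcripts, Flt1, Tek and Pdgfrb, were higher in Erbb4 conditional mutants under the call rule that the study's methods give (p not above 0.05 before adjustment, change of 1.5-fold or more either way), applied here to limma on log2(normalized count + 1). Of all 31171 genes tested, 3.98% were called higher by this rule and 3.17% lower, and 0 of the 10 transcripts were called lower. The groups did not overlap for 3 of the 10, Pecam1, Flt1 and Tek, with the mutants on top. Over all genes tested 2.76% had every mutant above every control and 2.17% had every mutant below. The median log2 fold change of the 10 was 0.37, with 9 of 10 above 0, against 0.06 over all genes tested, of which 53.4% were above 0. After Benjamini-Hochberg adjustment over all genes, 0 of the 10 passed 0.05 in limma, edgeR or DESeq2, while 4 had an unadjusted p under 0.05 in each. Their lowest adjusted p was 0.58 in limma, 0.57 in edgeR and 0.12 in DESeq2. These p-values measure the spread between these libraries, which the study's methods describe as biological replicates.

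Of the endothelial genes, the receptors Tek and Flt1 were called higher. Tek (chr4:94739289-94874976) had 11940, 18428, 22086 and 19154 normalized counts in controls 1, 3, 4 and 5, and 28412, 24827, 36539 and 38073 in mutants 2, 3, 4 and 5. The lowest mutant thus exceeded the highest control. The log2 fold change was 0.85 ± 0.25 (SE; 1.80-fold), with a limma p of 0.0058 before and 0.58 after adjustment. The exact permutation test gave p = 0.029 (two-sided), the smallest that 4 libraries against 4 allow. Tek was called higher in every alternative that was run, those without single libraries included, with log2 fold changes from 0.65 to 1.04.

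In the same order, Flt1 (chr5:147561604-147726013) had control values of 29191, 43389, 49715 and 45802 normalized counts and mutant values of 59167, 56809, 78265 and 74002. Again all mutants lay above all controls. The log2 fold change was 0.69 ± 0.25 (SE; 1.61-fold), with a limma p of 0.019 before and 0.58 after adjustment and an exact permutation p of 0.029 (two-sided). Without the library labelled control replicate 1 it was 0.52 (limma p of 0.033), under the 1.5-fold threshold, and without mutant 4 or mutant 5 it was 0.61 and 0.64 with a limma p of 0.060 and 0.055.

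Pecam1 (chr11:106654213-106750629) had 15585, 17227, 16693 and 12729 normalized counts in the controls, against 21550, 18607, 23717 and 21724 in the mutants. The groups did not overlap, and the controls varied less than for any other endothelial gene (coefficient of variation 12.9%). The log2 fold change was 0.46 ± 0.19 (SE), with a limma p of 0.032 before and 0.58 after adjustment and an exact permutation p of 0.029, and at 1.38-fold it was too small to be called. It was 0.47 without the library labelled control replicate 1 (limma p of 0.034), whereas its limma p was 0.086 without control 5, at 0.37, and 0.066 to 0.091 without mutant 2, mutant 4 or mutant 5.

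Barrier and junction genes of the same cells did not pass the test. Cldn5 (chr16:18776846-18778262) had 65342, 114263, 59321 and 41770 normalized counts in the controls, against 75725, 76229, 49253 and 44955 in the mutants (log2 fold change -0.13 ± 0.34, SE, limma p of 0.70, exact permutation p of 0.74). Control 3 was the highest of the 8 libraries and control 5 the lowest, so all mutants lay within the range of the controls. Slco1a4 (chr6:141805440-141856220) had 49481, 72437, 47755 and 36507 in the controls, against 63012, 62569, 57334 and 59347 in the mutants (log2 fold change 0.28 ± 0.25, SE, limma p of 0.30, exact permutation p of 0.20). Its mutants were closely grouped and lay above 3 of the 4 controls. The neighbouring paralogs Slco1a1, Slco1a5 and Slco1a6, with which it could share reads, reached at most 259 normalized counts in any library. Cdh5 (chr8:104101625-104144502) had 1384, 3341, 2412 and 1694 normalized counts in the controls, against 2772, 2771, 2093 and 2052 in the mutants (log2 fold change 0.20 ± 0.28, SE, limma p of 0.48, exact permutation p of 0.49). Its groups overlapped, with control 3 the highest library. Cdh5 overlaps Gm29682 in the table, and reads of the 2 genes could not be told apart without strand, but Gm29682 was listed at no more than 24.6 normalized counts.

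Of the mural genes, Pdgfrb was called higher. It had 2578, 7843, 10414 and 10115 normalized counts in controls 1, 3, 4 and 5 and 14195, 9744, 16840 and 15628 in mutants 2, 3, 4 and 5. Mutants 2, 4 and 5 lay above all controls, whereas mutant 3 fell among them, and the library labelled control replicate 1 lay far below the other controls. The log2 fold change was 1.02 ± 0.41 (SE; 2.03-fold), with a limma p of 0.029 before and 0.58 after adjustment and an exact permutation p of 0.086. Without the library labelled control replicate 1 the value fell to 0.56 (limma p of 0.035), under the threshold for a call, and the call was also lost without mutant 2, mutant 4 or mutant 5, at 0.93 to 1.01.

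The other mural genes did not pass the test. Rgs5 (chr1:169655499-169695813) had 5583, 16617, 9759 and 12341 normalized counts in the controls, against 22152, 20654, 12204 and 10210 in the mutants (log2 fold change 0.59 ± 0.36, SE, limma p of 0.13, exact permutation p of 0.20). Mutants 2 and 3 exceeded every control while mutants 4 and 5 lay within their range, an order of the mutants opposite to that of Flt1 and Tek. Its value was 0.29 without the library labelled control replicate 1 and 0.82 without control 3, where it was called higher (limma p of 0.045). Kcnj8 (chr6:142564838-142571614) had 1723, 1463, 1435 and 1501 in the controls, against 1525, 1913, 2285 and 1676 in the mutants (log2 fold change 0.26 ± 0.20, SE, limma p of 0.21, exact permutation p of 0.11). It varied least between controls, by 8.57% (coefficient of variation). Vtn (chr11:78499120-78502325) had 26794, 23338, 15905 and 19680 in the controls, against 24375, 22407, 19007 and 19616 in the mutants, and its log2 fold change of 0.01 ± 0.22 (SE, limma p of 0.95, exact permutation p of 0.94) was the closest to 0 of the 10. The library labelled control replicate 1 was its highest, the reverse of its place for Tek, Flt1 and Pdgfrb.

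The endothelial and mural genes had median log2 fold changes of 0.37 over 6 genes and 0.42 over 4. Their summed normalized counts differed in overlap. The 6 endothelial genes summed to 157657 to 269085 in controls against 240153 to 250637 in mutants. The 4 mural genes summed to 36678 to 49261 against 47129 to 62248. In both sums control 3 was the library that lay within or above the mutants. Without the library labelled control replicate 1, the median of the 10 log2 fold changes was 0.31, and Tek was called higher out of the 10, where 2.79% of all genes tested were called higher.

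The difference between genotypes varied with transcript length. Length was that of the longest GENCODE transcript of each gene, from 1416 bases for Cldn5 and 1744 for Vtn to 5423 for Pdgfrb and 6895 for Flt1. Across the 10 genes the log2 fold change and the log2 length had a Pearson correlation of 0.85, and across 115 vascular genes, the 10 and those of the other vascular lists below, 0.52 (Spearman 0.58). Without the library labelled control replicate 1 these were 0.73 for the 10 and 0.38 (Spearman 0.37) for the 115. These are correlations across genes measured in the same 8 libraries, and genes are not independent replicates. Of the 35 vascular genes over 5 kb, 13 were called higher, where 10.1% of all genes of that length were, and of the 22 of at most 2 kb, 0, where 1.13% of all genes were. The count was 5 of the 35 without the library labelled control replicate 1, where 2.79% of tested genes of every length were called higher. The share among all genes over 5 kb was not computed without that library, so this count cannot be compared with genes of like length. All genes tested showed a gradient as well, with a median log2 fold change of -0.44 among 1135 genes under 1 kb and 0.28 among 1910 genes of 5 to 7 kb, and -0.29 and 0.13 without that library. It differed between libraries. In the library labelled control replicate 1 the median distance from a gene's own mean over the 8 libraries went from 0.82 on the log2 scale for genes under 1 kb to -0.51 for those over 7 kb, and in control 3 from 0.65 to -0.25, whereas it was -0.26 to 0.14 in control 4 and -0.21 to 0.32 in mutant 4.

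**Figure D2:**
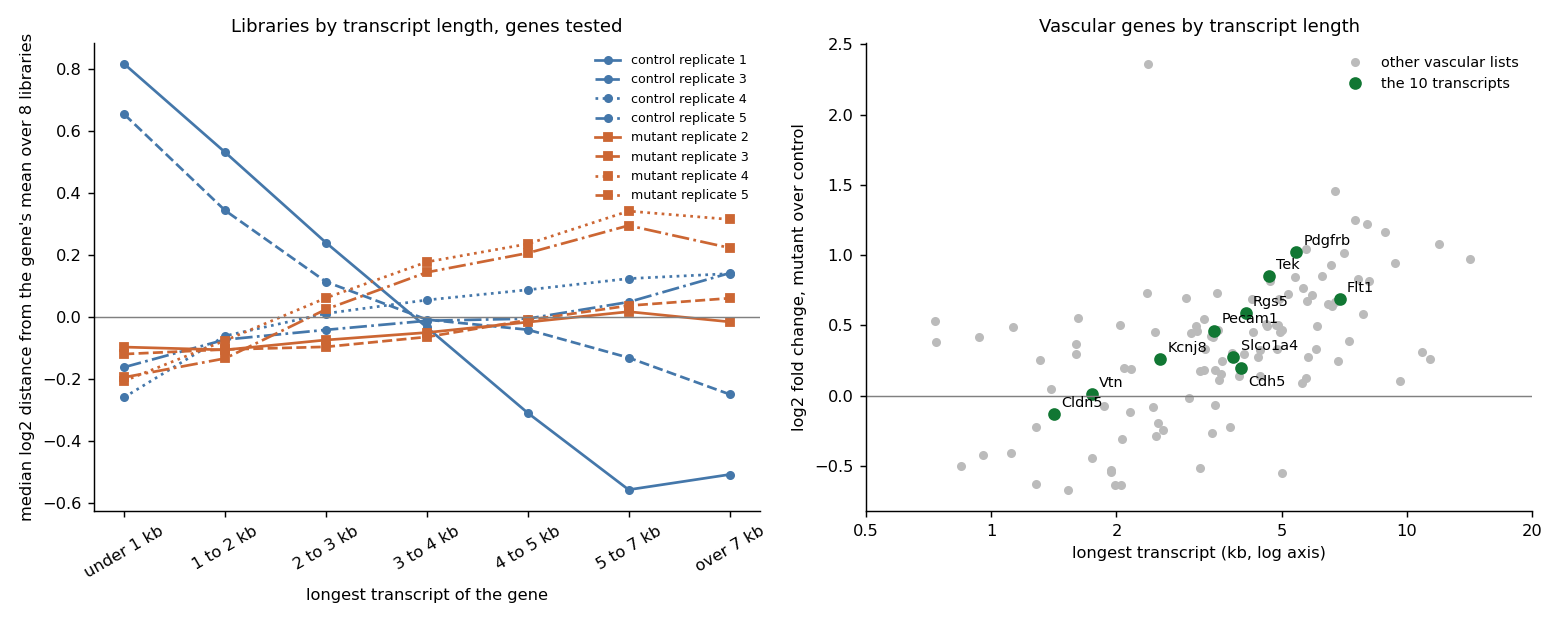
Left, median log2 distance of the tested genes from their own mean over 8 libraries, by length of the longest transcript, with 1 line per library. Right, log2 fold change of 115 vascular genes against length (log axis), the 10 transcripts in green. The library labelled control replicate 1 and control 3 slope downwards with length, and the longer vascular genes have the higher fold changes.

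After the median of each of 20 length bins was removed from every library, an alternative chosen after seeing the data, all 10 transcripts had log2 fold changes above 0, with a median of 0.35, against -0.02 over the 16594 tested genes with a length. Tek stayed called higher at 0.65 (SE 0.17, limma p of 0.0026) and Pdgfrb at 0.71 (standard error 0.30, limma p of 0.038). Flt1, the longest, fell to 0.37 (standard error 0.18, limma p of 0.063) and was no longer called. Among all genes, 3.23% were called higher in this fit. The short genes took higher values in this fit, Cldn5 0.25 (limma p of 0.39) and Vtn 0.24 (limma p of 0.20), neither of which passed the test.

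**Figure D3:**
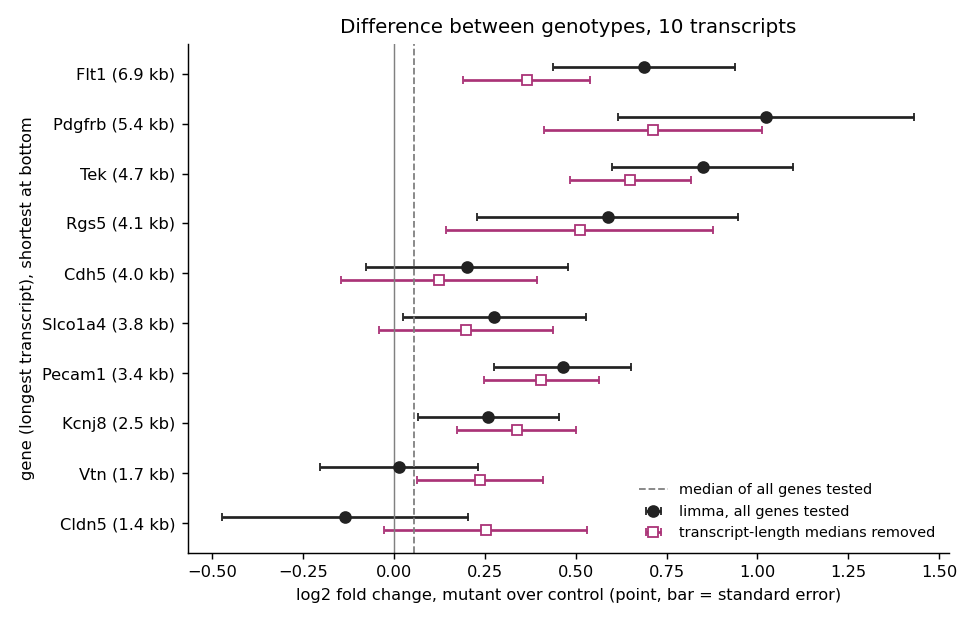
Log2 fold change of the 10 transcripts, mutant over control, with the standard error as a bar, ordered by the length of the longest transcript. Filled circles are the limma fit on all genes tested and open squares the fit with length-bin medians removed. The dashed line is the median of all genes tested, 0.06. The 10 span -0.13 (Cldn5) to 1.02 (Pdgfrb) in the first fit. They span 0.12 (Cdh5) to 0.71 (Pdgfrb) once length-bin medians are removed, with Cldn5 at 0.25.

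Other genes of the same cells and pathways were taken from 9 further vascular lists, with 105 genes tested. Of these, 16 were called higher, against 3.98% of all genes tested, and 0 lower, each of the 16 with an adjusted p of 0.58 in limma, and 81 of the 105 had log2 fold changes above 0, with a median of 0.38. Every mutant lay above every control for 18 of them, against 2.76% of all genes tested. After removal of the length bins 13 of the 105 were called higher, against 3.23%. Without the library labelled control replicate 1 the count called higher was 8, against 2.79% of all genes, with a median of 0.26, and 7 of those 8 were among the 16 (Ptprb, Abcc4, Abcc9, Foxf2, Fzd4, Lrp5 and Lef1). It was 9 without mutant 4, against 1.98%, and 9 without mutant 5, against 2.29%.

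Among 19 other endothelial genes the median log2 fold change was 0.42, and 2 were called higher. Ptprb, the endothelial phosphatase that acts on Tie2, had 34018 to 86523 normalized counts in controls and 103791 to 198840 in mutants (log2 fold change 1.08, standard error 0.36, limma p of 0.012), with no overlap, and 0.78 without the library labelled control replicate 1. Podxl, a sialomucin of the luminal surface, was at 0.84 ± 0.33, and at 0.47 and no longer called without that library. The uncalled genes with the highest mean counts were Itm2a, with a log2 fold change of -0.44, and Eng, a co-receptor for TGF-beta family ligands, at 0.42. Of the 13 blood-brain barrier transporters and their partners, 1 was called higher, Abcc4, an efflux pump, with 5028 to 9160 normalized counts in controls and 9879 to 19036 in mutants (log2 fold change 1.04, standard error 0.25, limma p of 0.0018). It was 0.90 and still called without the library labelled control replicate 1. The uncalled genes with the highest mean counts were Bsg (basigin), at the lowest log2 fold change of the list, -0.67, and the amino acid transporter Slc7a5, at 0.47. The median was 0.18, and 0.02 without control 5. Of 10 tight junction genes besides Cldn5, those called higher included the scaffold Tjp1 (1.01), while the uncalled genes with the highest mean counts, Ocln, occludin, and Cldn12, were at 0.30 and -0.22, with a median of 0.23. Tjp1 was at 0.60 without the library labelled control replicate 1, where 0 of the 10 were called.

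The 15 other pericyte genes had a median of 0.46, with 14 above 0 and 3 called higher. Abcc9, the regulatory subunit that pairs with the channel of Kcnj8, had 480, 2290, 1978 and 1613 normalized counts in the controls, against 3633, 3000, 3758 and 2772 in the mutants (log2 fold change 1.25, standard error 0.42, limma p of 0.013). The groups did not overlap, and the library labelled control replicate 1 was the lowest. Foxf2, a transcription factor of brain pericytes, was at 0.73 and Notch3, a receptor of mural cells, at 1.22, while the uncalled genes with the highest mean counts, Atp13a5 and Mcam, were at 0.49 and -0.01. Without that library Abcc9 was at 0.75 and Foxf2 at 0.63, both still called, and Notch3 at 0.62, not called. All 8 smooth muscle genes had log2 fold changes above 0 (median 0.50), and 1 was called higher, Myh11, smooth muscle myosin, at 0.93 (0.74 and not called without that library). Mylk and Myl9, a kinase and a light chain of the contractile apparatus, were at 0.58 and 0.49, with limma p-values of 0.020 and 0.029 but under 1.5-fold.

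Receptors and ligands of the VEGF list had a median of 0.20. Of its 9 genes tested, the receptors Kdr (0.72, standard error 0.28, limma p of 0.026) and Flt4 (0.85, standard error 0.36, limma p of 0.040) were called higher, as was Flt1, whereas the co-receptor Nrp1 was at 0.25 and the ligand Vegfb at -0.63, not called. Kdr was at 0.45 and Flt4 at 0.51 without the library labelled control replicate 1, neither called. The list median was then 0.01, and it was -0.01 without control 3. In the angiopoietin and PDGF list, Tie1, the partner of Tek, was at 0.69 (standard error 0.23, limma p of 0.013) and Pdgfb, the ligand of the Pdgfrb receptor, at 0.70 (standard error 0.22, limma p of 0.0081), both called higher and neither with overlapping groups. With control 1 left out they were at 0.55 and 0.52, under 1.5-fold. Angpt2, a ligand of Tie2, was at 0.15 and Pdgfa at -0.31, not called, and the median of the 8 was 0.35. In the Wnt and Norrin list, which directs barrier formation, 3 of 11 genes were called higher, the receptor Fzd4 (1.46, standard error 0.49), the co-receptor Lrp5 (0.72) and the transcription factor Lef1 (0.73), while Apcdd1 was at 0.31 and Wnt7b at -0.27 (median of the list 0.32). With control 1 left out, Fzd4 was at 0.87, Lrp5 at 0.63 and Lef1 at 0.63, still called, and the median was 0.21. Of 12 genes of the vascular basement membrane, 0 were called although all 12 were above 0 (median 0.44), and with control 1 left out the median was 0.20. Those with the highest mean counts, Col4a1 and Col4a2, were at 0.64 and 0.65 with limma p-values of 0.13 and 0.092.

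**Figure D4:**
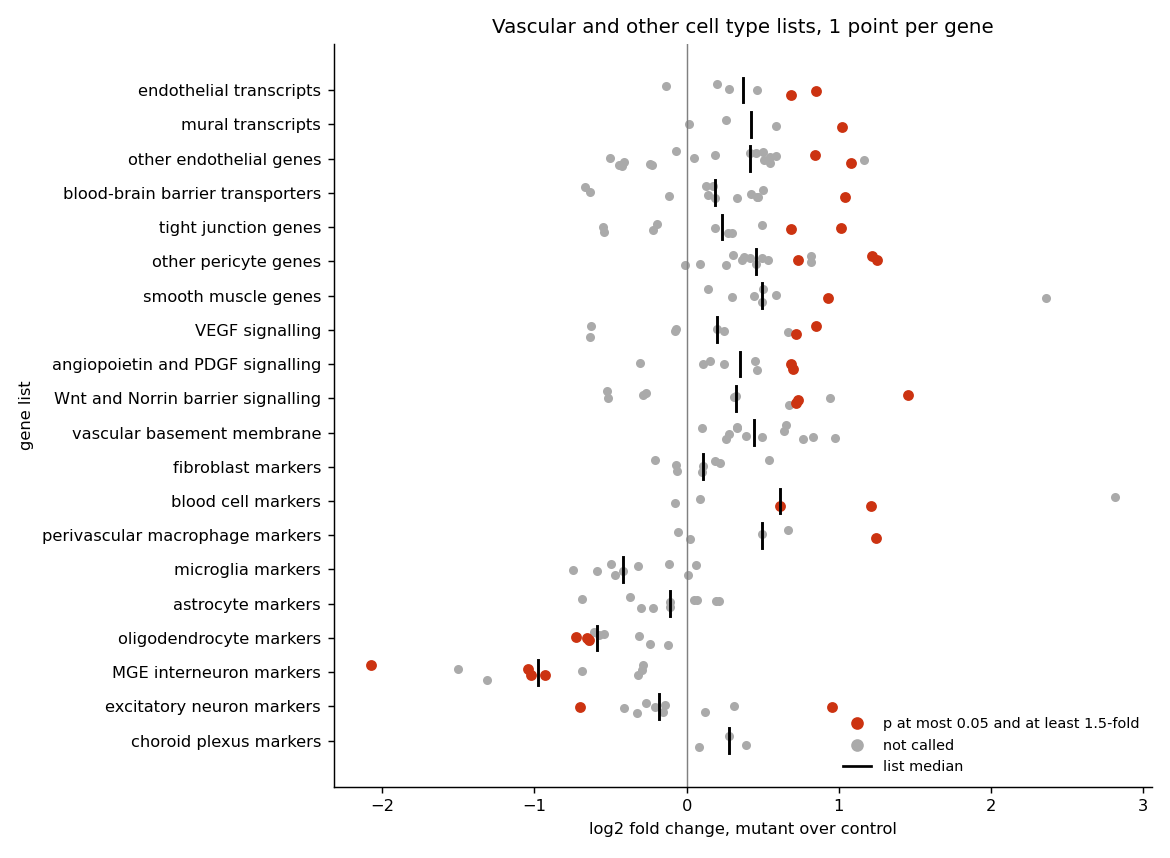
Log2 fold change, mutant over control, of every tested gene of each list, with called genes in red (unadjusted p at most 0.05 and at least 1.5-fold), other genes in grey and the list median as a black line. In the vascular lists all called genes lie to the right of 0, and in the oligodendrocyte and MGE interneuron lists all called genes lie to the left.

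Markers of interneurons, glia, fibroblasts and excitatory neurons had list medians between -0.97 and 0.10. Of 10 MGE interneuron markers, 4 were called lower (Kcnc1 at -1.02, Pvalb at -2.08 and Gad2 at -0.93, beside Gad1 at -1.04), and all 10 were below 0 with a median of -0.97. Their summed normalized counts ran from 64385 to 474306 in controls and 23876 to 187626 in mutants, so that the groups overlapped, with mutants 4 and 5 the lowest libraries. Of 10 oligodendrocyte markers 3 were called lower (Mag at -0.66, Mog at -0.73 and Opalin at -0.64), with a median of -0.59 and sums of 231352 to 676147 in controls and 204625 to 288949 in mutants, the library labelled control replicate 1 being the highest. Without it 1 MGE interneuron marker was called lower, Kcnc1, and 0 oligodendrocyte markers, with medians of -0.95 and -0.33. The 10 astrocyte markers (median -0.11), the 9 microglia markers (median -0.42, and -0.22 without that library) and the 8 fibroblast markers (median 0.10, and 0.18 without it) held 0 called genes. The 10 excitatory neuron markers had a median of -0.18, and those called included Neurod6, lower at -0.70. None of these lists had its defining markers at 0, and the part that the interneuron or glial content of a library had in the differences of the 10 transcripts was not tested.

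**Figure D5:**
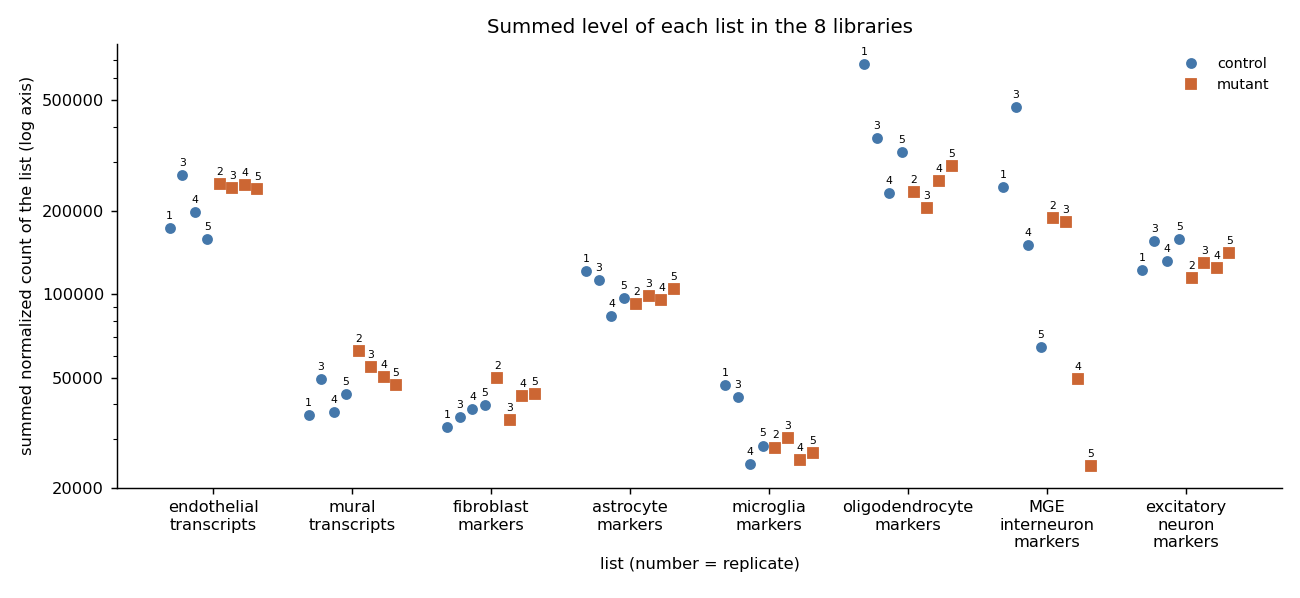
Summed normalized counts (log axis) of the endothelial and mural transcripts and of 6 other marker lists in each library. Circles are controls and squares mutants, with the replicate number above each point. Mutants 4 and 5 have the lowest sums of MGE interneuron markers. They lie close to mutants 2 and 3 for the endothelial transcripts and below them for the mural transcripts.

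The genes whose pattern over the 8 libraries was most like that of the 10 transcripts were found by the Pearson correlation with the mean of their centred log2 values, among 18110 other genes with a mean of at least 100 normalized counts in both genotypes. That mean lay at -0.55 in the library labelled control replicate 1, at 0.12, -0.13 and -0.28 in controls 3, 4 and 5, and at 0.29, 0.20, 0.23 and 0.12 in mutants 2, 3, 4 and 5. The 8 most like were a gene without a symbol (r = 0.98), Ldlrad3 (0.98), Lysmd3 (0.98), Calcrl (0.97), Uevld (0.97), Itga6 (0.97), Mapk1ip1l (0.96) and Cd93 (0.96). Of these, Calcrl encodes a receptor for adrenomedullin and CGRP, Itga6 a laminin-binding integrin and Cd93 a surface protein of endothelial cells. Calcrl had 748 to 2103 normalized counts in controls and 2703 to 3306 in mutants, Itga6 2368 to 5603 and 7182 to 8518, and Cd93 1601 to 6004 and 5472 to 6824. The groups of Calcrl, Itga6, Lysmd3, Uevld and Mapk1ip1l did not overlap, and those of Cd93, Ldlrad3 and the gene without a symbol did. The mean used in the search was itself higher in every mutant than in every control (0.125 in mutant 5, 0.120 in control 3). The search therefore favoured genes whose groups are apart, and their separation is not a separate result. The 7 genes with a symbol had transcripts of 3833 to 6677 bases.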

How the data were processed

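Ribosome-associated RNA of cortical synaptosomes was sequenced from 4 control and 4 Erbb4 conditional mutant libraries, grouped by sample title. The authors aligned paired-end reads from SMARTer Ultra Low RNA libraries, which do not mark strand, with STAR 2.4.0 to mm10, counted reads on constitutive regions of each Mouse Fast DB gene, and deposited these as a signal, counts divided by a DESeq2 size factor per library. Dividing by the value of 1 read gave whole reads for 100% of values (tolerance 0.01).

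Genes averaging 10 or more in either genotype entered a limma 3.58.1 fit (trend, no covariate, R 4.3.3) on log2(normalized count + 1), a scale that understates changes of low genes, with Benjamini-Hochberg adjustment. Exact permutation tests were run per gene. Alternatives were pseudocounts of 0.1 and 10, no filter or a mean of 100, edgeR 4.0.16 and DESeq2 1.42.0 on recovered reads, quantile normalization, library weights, a replicate block, leaving out each library and length bins. In simulated data with 200 genes changed 3-fold (30341 genes tested), limma called 98.5% of changed and 5.01% of unchanged genes. The simulation gave every gene the same dispersion, had no length gradient or deviating library, and changed only genes with a mean over 100. Smaller changes were not simulated, so these rates need not hold for the measured libraries.

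The members and lists were chosen with earlier results of these data known. Named genes were the 10 members, in each other list up to 3 called genes by smallest p and up to 2 uncalled genes of highest mean, the 8 most like genes, and neighbours sharing reads; Gad1 was added after its values were seen, and some list genes are not reported here. Coordinates are those of the deposited table (mm10). Lengths were matched by symbol.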

Additional observations from a re-analysis of the deposited data

Results flagged for a closer look

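The summed level of 12 vascular basement membrane genes was 141167 normalized counts in the library labelled control replicate 1, far below the 356519 to 371000 of the other controls. Mutant replicate 3 had 507.7 summed normalized counts of the choroid plexus markers, where the other mutants had 307.6 to 334.3. Each was a sample far from the others of its group by Dixon's test. Of 60 groups examined, chance alone would give about 3 such cases.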

How the results depend on the processing

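The median log2 fold change of the 10 transcripts stayed above 0 in every alternative, from 0.31 to 0.56. Leaving out each library gave 0.31 to 0.49 for that median, 1 to 4 of the 10 called higher, 8 to 24 of the other 105 vascular genes called and 1194 to 3767 of all genes tested. The lowest counts of transcripts (1) came without control 1, mutant 4 or mutant 5, and the highest count of all genes without control 5. Against 16 vascular genes and 2229 genes in all, quantile normalization called 28 vascular genes, and library weights 27 and 3630 genes in all. With the replicate number as a block 1 of the 10 was called (Tek), with Flt1 at 0.58 and Pdgfrb at 0.54, under 1.5-fold but with limma p-values of 0.0053 and 0.0075, smaller than without the block. Control 1 and mutant 2 have no library of the same number in the other genotype. The fold changes of this fit therefore rest on replicates 3, 4 and 5 only, and leave out control 1 as well as mutant 2. Same-numbered libraries correlated at 0.082 to 0.10, with a mean of 0.093 against -0.021 for controls and mutants of different number. Some of the latter were nearly as high, such as control 5 with mutant 4 at 0.085. Whether the numbers pair the samples cannot be told from these values, and they were not taken to do so. Of all calls 44.3% were lower, against 55.5% with DESeq2 and 54.3% with the block. Log2 fold changes near 0 changed sign. Cldn5, at -0.13, was 0.16 after quantile normalization, 0.25 after removal of length bins and -0.35 to 0.13 on leaving out libraries, Vtn (0.01) was -0.12 to 0.13 on leaving out libraries, and Cdh5 (0.20) was -0.066 with the block. The cause was not tested.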

Other observations

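Cells carried by or lying along vessels were also measured. Of 7 blood cell markers 5 were found and tested, and 2 were called higher, Alas2, the erythroid enzyme of heme synthesis (log2 fold change 0.61, standard error 0.25, limma p of 0.034), and Slc4a1, the anion exchanger of red cells (1.21, standard error 0.44, limma p of 0.019). The median of the 5 was 0.61, and 0.81 without the library labelled control replicate 1, where both stayed called. The globin genes Hba-a1 and Hba-a2 were at -0.07 and 0.09, not called. Of 5 markers of perivascular macrophages, Cd163, the scavenger receptor for hemoglobin, was called higher, with 87.3 to 165.7 normalized counts in controls and 185.5 to 475.3 in mutants, while Mrc1 was at -0.05 and F13a1 at 0.50, not called, and the median was 0.50. The choroid plexus markers were close to the floor, with Otx2 at 0 in all 8 libraries and 3 of 5 tested.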
